A study of Mus musculus with 39 samples.

Results

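The response of mouse liver to 2 hours of reduced oxygen was measured on 16 of the 39 samples of the series, with 1 Affymetrix array per sample. The samples were taken by tissue and title: 8 liver samples labelled reduced oxygen, called hypoxic here, and 8 liver samples labelled control, whose titles name a vehicle but no substance. All mice were of the hybrid strain B6C3F1, both groups were sampled at 2 hours, and all mice were killed by cervical dislocation under ketamine and acepromazine, so that anaesthetic is shared by both groups. A piece of the left lateral lobe was taken, RNA was purified on Qiagen columns and labelled by 1 cycle of amplification. The labels give no age and no oxygen level, and do not say that each array is a separate mouse, so p-values measure only the spread between these samples, which may be technical.

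Cells sense oxygen through prolyl hydroxylases, enzymes that use oxygen to mark the alpha subunits of hypoxia-inducible factor (HIF) for destruction. When oxygen falls, HIF escapes, pairs with a constant beta subunit and switches on genes for glycolysis, iron uptake, blood vessel growth and the sparing of oxygen. The liver stores and releases glucose, secretes most plasma proteins, and also answers adrenal glucocorticoids, stress hormones whose receptor raises genes of glucose production and growth arrest.

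Values are log2 probe set intensities, 1 probe set per gene, and a change is the hypoxic minus the control mean with the replicate set (1 to 4 or 5 to 8) as a term in limma. Each ± is the standard error of that fit, and a gene was called higher or lower at a Benjamini-Hochberg adjusted p under 0.05 over all 12735 genes tested. Array medians lay between 5.21 and 5.34. The second principal component (24.8% of variance) separated the replicate sets, and the first (35.3%) separated hypoxic from control arrays. On that first component hypoxic arrays 3, 6, 7 and 8 stood at 25.5 to 27.0 and hypoxic arrays 1, 2, 4 and 5 at 4.03 to 8.82, against -20.9 to -11.9 for the controls. Hypoxic arrays 3, 6, 7 and 8 stand apart in this way, so results below are also given without them, a choice made after the data were seen. Hepatocyte markers checked the tissue: their summed level was 18.56 to 18.60 in both groups, and 0 of 18 were called. Many of them are very bright (median 14.3 in control), where a change may not show. No pair of arrays held the same values.

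In all, 812 genes rose (6.38%) and 1856 fell (14.6%), together 21.0% of the genes tested. The rises were the larger changes: 118 genes rose and 58 fell at least 2-fold, and 31 rose and 4 fell at least 4-fold. The groups did not overlap at all for 130 of the genes that rose and 232 of those that fell, together 2.84% of genes. Without hypoxic arrays 3, 6, 7 and 8, 378 genes rose (2.97%) and 697 fell (5.47%). Without the set term 494 rose and 919 fell.

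**Figure D1:**
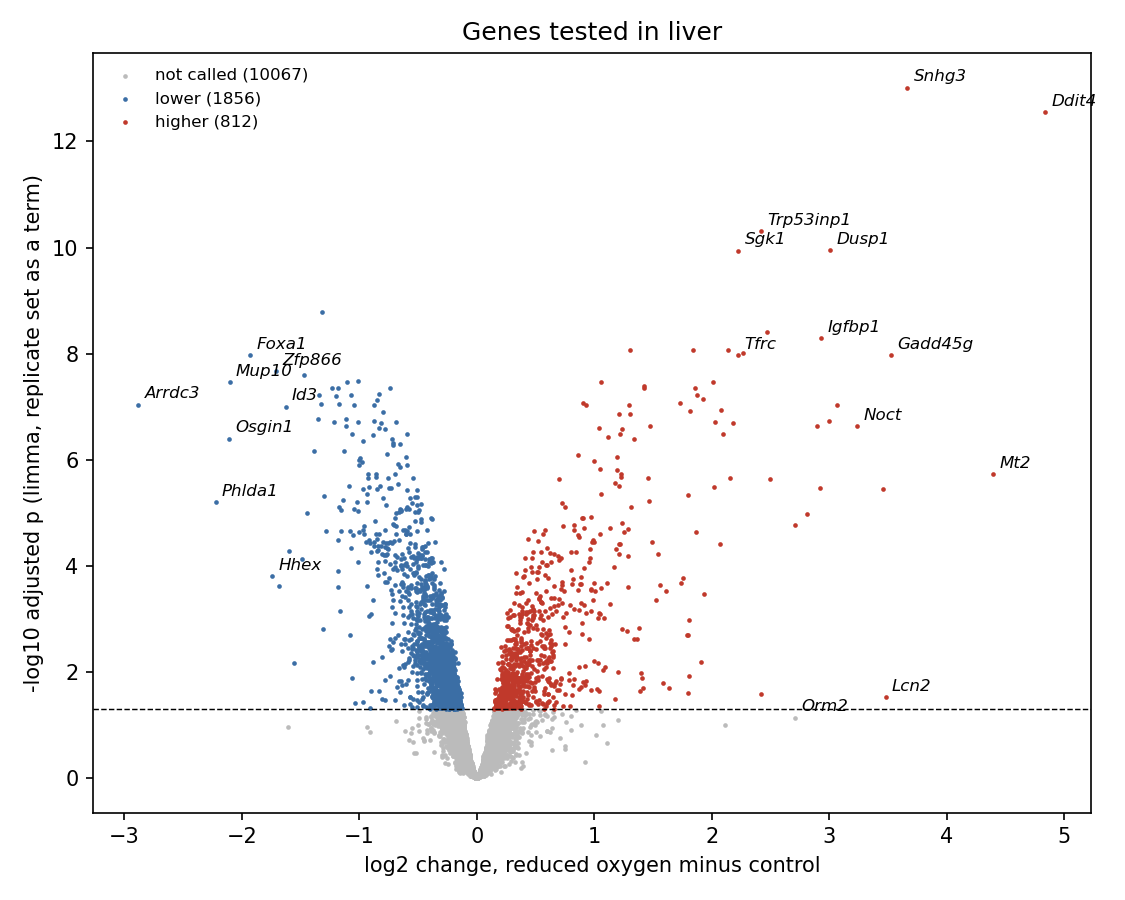
Each point is 1 of 12735 genes, with its log2 change (reduced oxygen minus control, 8 arrays each) on the x axis and -log10 of its adjusted p from limma on the y axis. Red points (812) rose, blue points (1856) fell and grey points were not called. Ddit4 and Snhg3 lie at the upper right, and Arrdc3 is the farthest to the left.

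Promoter sequence is shown for genes that rank among the largest rises or head their group, so that the letters upstream of their start can be read beside their values. The sequences are the 250 bases before the gene start in RefSeq on build GRCm38.p6, written 5′ to 3′ along the gene. They were chosen after the motifs had been seen. In Ddit4 (chr10:59951771-59952020, minus strand) and Ankrd37 (chr8:45999851-46000100, minus strand) capitals mark ACGTG, the core of the HIF binding site.
Ddit4: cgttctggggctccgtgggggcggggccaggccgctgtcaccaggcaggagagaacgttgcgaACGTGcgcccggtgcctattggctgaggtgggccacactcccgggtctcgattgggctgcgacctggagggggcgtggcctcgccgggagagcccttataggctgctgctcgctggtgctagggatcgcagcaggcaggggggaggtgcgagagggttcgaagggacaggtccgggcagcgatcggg
Ankrd37: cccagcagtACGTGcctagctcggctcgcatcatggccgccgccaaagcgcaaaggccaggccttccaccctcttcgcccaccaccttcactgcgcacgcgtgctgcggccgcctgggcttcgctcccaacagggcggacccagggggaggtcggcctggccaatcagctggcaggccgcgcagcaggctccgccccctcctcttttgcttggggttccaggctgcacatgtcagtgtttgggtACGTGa
In the neighbouring metallothionein genes Mt2 (chr8:94172368-94172617, plus strand) and Mt1 (chr8:94178839-94179088, plus strand) capitals mark TGCACNC or TGCGCNC, cores of the metal response element, on either strand.
Mt2: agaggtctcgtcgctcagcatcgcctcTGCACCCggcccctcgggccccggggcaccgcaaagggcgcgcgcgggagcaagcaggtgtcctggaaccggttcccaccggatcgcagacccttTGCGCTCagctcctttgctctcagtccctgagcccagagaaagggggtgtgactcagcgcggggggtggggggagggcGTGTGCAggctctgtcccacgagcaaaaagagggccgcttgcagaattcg
Mt1: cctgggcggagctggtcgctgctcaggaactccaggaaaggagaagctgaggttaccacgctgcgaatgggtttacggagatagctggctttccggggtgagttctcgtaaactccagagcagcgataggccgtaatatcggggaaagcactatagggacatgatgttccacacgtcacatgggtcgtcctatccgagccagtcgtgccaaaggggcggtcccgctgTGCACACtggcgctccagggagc
In Dusp1 (chr17:26508473-26508722, minus strand) and Btg2 (chr1:134079156-134079405, minus strand) capitals mark TGACGT, the core of the cyclic AMP response element, which on both strands at once reads TGACGTCA.
Dusp1: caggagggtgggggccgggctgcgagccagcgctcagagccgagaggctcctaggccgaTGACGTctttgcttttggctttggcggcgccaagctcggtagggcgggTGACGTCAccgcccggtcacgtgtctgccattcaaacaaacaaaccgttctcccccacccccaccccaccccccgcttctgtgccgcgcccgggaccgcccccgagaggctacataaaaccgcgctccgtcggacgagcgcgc
Btg2: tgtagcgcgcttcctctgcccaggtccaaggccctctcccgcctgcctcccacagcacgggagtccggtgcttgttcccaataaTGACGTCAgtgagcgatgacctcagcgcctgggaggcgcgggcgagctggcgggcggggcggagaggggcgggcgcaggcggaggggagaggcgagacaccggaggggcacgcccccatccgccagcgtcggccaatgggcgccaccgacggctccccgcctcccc
Counted from the gene start, Ddit4 holds ACGTG once, at -187, and Ankrd37 holds it at -241 and -6. Such short strings are common. On either strand ACGTG was in 16.6% of all 32851 RefSeq windows of this length, in 20.9% of windows of genes tested in liver, in 26.4% of windows of genes that rose and in 21% of windows of genes that fell. TGACGT was in 6.47%, 9.27%, 13.7% and 9.3% of the same window sets, TGCACNC in 10.4%, 10.9%, 9.17% and 12.3%, and TGCGCNC in 12.5%, 20.1%, 22% and 20.8%. A match is a description of the sequence and not a binding site.

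The HIF target genes rose as a group more often than genes at large. Of 41 tested members 22 rose (53.7%, against 6.38% of all genes) and 2 fell, with a median change of 0.24 against -0.03 for all genes. Without hypoxic arrays 3, 6, 7 and 8, 16 rose and 1 fell, with a median of 0.20. Within replicates 1 to 4 alone 12 rose and 1 fell, and within replicates 5 to 8 alone 20 rose and 1 fell. On each hypoxic array between 14 and 28 of the 41 members lay above all 8 controls, the fewest on hypoxic array 5 and the most on hypoxic array 3.

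Ddit4, an inhibitor of the growth kinase complex mTORC1, had the largest change of all genes. It stood at 5.78 to 7.21 (median 6.76) on the control arrays and at 10.71 to 12.10 (median 11.60) on the hypoxic arrays. The 2 groups lay far apart, with no control within 3 log2 units of a hypoxic array, and the rise was 4.84 ± 0.15 (limma, adjusted p = 2.78e-13), 4.80 within replicates 1 to 4 and 4.88 within replicates 5 to 8. Igfbp1, a liver-secreted protein that binds insulin-like growth factors in blood, stood at 10.36 to 11.72 (median 11.17) in control and 13.85 to 14.28 (median 14.08) under hypoxia. Its hypoxic arrays lay in a narrow band, and the rise was 2.93 ± 0.18 (adjusted p = 5.15e-09). Without hypoxic arrays 3, 6, 7 and 8 the rises were 4.59 for Ddit4 and 2.87 for Igfbp1.

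Genes of iron uptake and glucose use followed. Tfrc, the transferrin receptor that brings iron into cells, stood at 8.02 to 8.94 (median 8.40) in control and 10.25 to 10.96 (median 10.78) under hypoxia, a rise of 2.22 ± 0.15 (adjusted p = 1.08e-08). Pfkfb3, an enzyme whose sugar phosphate product speeds up glycolysis, stood at 5.16 to 6.51 (median 5.64) and 7.85 to 9.97 (median 8.81), a rise of 3.00 ± 0.25 (adjusted p = 1.82e-07), and its dimmer probe set gave 1.47. For neither gene did any hypoxic array reach down to the controls. Slc2a1, the glucose transporter GLUT1, rose by 0.99 ± 0.16 (adjusted p = 0.000212), with 7 of 8 hypoxic arrays above every control. Ldha, which turns pyruvate into lactate, rose by 0.45 ± 0.11 (adjusted p = 0.00608), but its change was 0.25 without hypoxic arrays 3, 6, 7 and 8 (adjusted p = 0.197). The glycolytic enzymes Aldoa and Hk1 rose by 0.55 ± 0.10 (adjusted p = 0.000836) and 0.24 ± 0.05 (adjusted p = 0.00321), and the groups of both overlapped. The call of Hk1 also ended without those 4 arrays (adjusted p = 0.0914).

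Ankrd37, an ankyrin repeat gene and known direct HIF target, varied widely among the hypoxic arrays. It stood at 4.12 to 4.56 (median 4.30) in control and 5.61 to 8.38 (median 7.30) under hypoxia, a rise of 2.71 ± 0.34 (adjusted p = 1.7e-05). Hypoxic arrays 1, 2 and 5 were the lowest and hypoxic array 3 the highest, and all lay above the controls. Control values of Ankrd37 lay near the 30th percentile of the control arrays (4.18 to 4.30), so the size of its rise is uncertain. Bhlhe40, a repressor in the circadian clock, rose by 2.07 ± 0.28 (adjusted p = 3.84e-05), Kdm3a, a histone demethylase, by 1.12 ± 0.10 (adjusted p = 3.74e-07) and Adm, a vasodilator peptide, by 1.22 ± 0.11 (adjusted p = 3.29e-07), each without overlap of the groups. Bnip3, a receptor for the removal of mitochondria, rose by 0.70 ± 0.10 (adjusted p = 7.77e-05). Vegfa, the main growth factor of vessels, stood at 8.08 to 8.88 (median 8.61) in control and 8.81 to 9.54 (median 9.19) under hypoxia, a rise of 0.66 ± 0.11 (adjusted p = 0.000404), with 7 of 8 hypoxic arrays above the controls.

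Hmox1, the heme-degrading enzyme, stood at 6.89 to 7.14 (median 6.94) in control and 7.40 to 10.12 (median 7.79) under hypoxia, a rise of 1.08 ± 0.27 (adjusted p = 0.00923). Hypoxic array 3 was 2 log2 units above the next, and without it the rise was 0.77 (adjusted p = 1.55e-05). Other textbook targets were not called: Egln3, an oxygen-sensing hydroxylase, was at 0.11 ± 0.14 (adjusted p = 0.622) and Car9, a carbonic anhydrase, at 0.01 (adjusted p = 0.926). The dimmer probe set of Egln3 gave 0.58. Angptl4, a lipoprotein lipase inhibitor, depended on the probe set. Its brightest probe set stood at 10.87 to 11.12 (median 11.05) in control and 10.47 to 11.46 (median 11.20) under hypoxia and gave 0.05 ± 0.12 (0.26 and called higher without hypoxic arrays 3, 6, 7 and 8, adjusted p = 0.0477). Its other probe set stood at 2.93 to 3.73 (median 3.34) and 5.20 to 7.66 (median 6.71), without overlap. Its control values lay below the 30th percentile of every array, so no size is given for that difference. The 2 members that fell were the lipid droplet protein gene Plin2 (-0.33, adjusted p = 0.011), whose call ended without hypoxic arrays 3, 6, 7 and 8 (adjusted p = 0.207), and Zfp395 (-0.43, adjusted p = 0.00311).

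**Figure D2:**
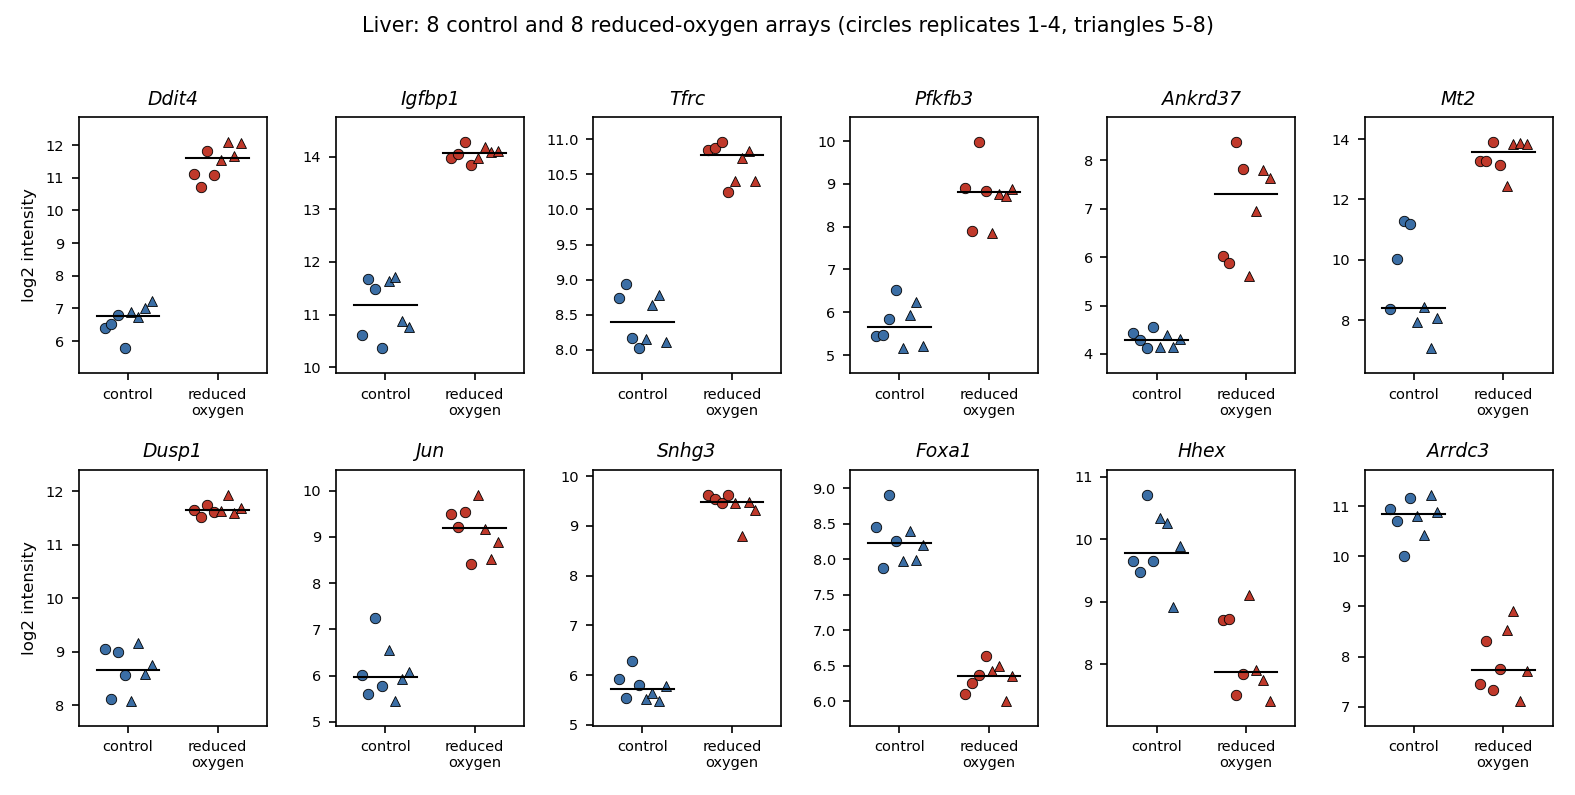
Each panel gives the log2 intensity (y axis) of 1 gene on the 8 control and 8 reduced-oxygen liver arrays; circles are replicates 1 to 4, triangles 5 to 8, and bars are group medians. Ddit4, Dusp1 and Snhg3 show tight groups far apart, Ankrd37 and Hhex a wide hypoxic spread, and Hhex is the 1 gene here whose groups overlap.

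Most genes of the oxygen sensor itself moved by small amounts. Of 17 HIF subunits, oxygen sensors and related genes 6 rose (35.3%, against 6.38% of all genes) and 0 fell, with a median of 0.11. Without hypoxic arrays 3, 6, 7 and 8, 2 of them rose (11.8%, against 2.97%). These were Cited2 and P4ha1, and neither is a HIF subunit or an oxygen sensor. Without any 1 of controls 3, 5, 6 and 8 and hypoxic arrays 3, 6, 7 and 8 the count was 2 or 3. Cited2, a HIF-induced protein that competes with HIF for its coactivators, stood at 8.54 to 9.15 (median 8.85) in control and 9.56 to 11.93 (median 10.64) under hypoxia, a rise of 1.86 ± 0.24 (adjusted p = 2.29e-05). P4ha1, a collagen prolyl hydroxylase, rose by 0.79 ± 0.14 (adjusted p = 0.000555), and neither gene's groups overlapped. The HIF alpha subunits Hif1a (0.17 ± 0.06, adjusted p = 0.0478) and Epas1 (0.24 ± 0.08, adjusted p = 0.0486) and the oxygen-sensing hydroxylases Egln1 (0.29 ± 0.10, adjusted p = 0.0373) and Egln2 (0.19 ± 0.06, adjusted p = 0.0352) rose by less than 1.25-fold, and all 4 had overlapping groups. With the replicate number as a block Hif1a (adjusted p = 0.0667) and Epas1 (adjusted p = 0.0701) lost their call, and without the set term all 4 did (adjusted p 0.0657 to 0.301). Leaving out 1 array ended the call of Hif1a for controls 1, 2, 3, 5, 6 and 8 and hypoxic arrays 1, 3, 4, 6, 7 and 8, and that of Epas1 for controls 2, 3, 5, 6, 7 and 8 and hypoxic arrays 3, 4, 6, 7 and 8 (adjusted p up to 0.101). It ended that of Egln1 for controls 3, 5, 6 and 7 and hypoxic arrays 3, 4, 6, 7 and 8, and that of Egln2 for controls 1, 4, 5 and 8 and hypoxic arrays 1, 2, 3, 7 and 8 (adjusted p up to 0.0788).

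Glucocorticoid receptor targets had the highest median change of the 12 lists plotted here. Of 36 tested members 22 rose (61.1%, against 6.38% of all genes) and 0 fell, with a median change of 1.01. Without hypoxic arrays 3, 6, 7 and 8 the count was again 22 and 0 (against 2.97% of all genes higher), with a median of 0.84. Between 18 and 24 of the 36 lay above all controls on each hypoxic array, and for 17 members the groups did not overlap, against 2.84% of all genes. No hormone was measured. Ddit4 is a member of this list too, and Lcn2 is also among the acute phase genes and neutrophil markers described further on.

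The metallothioneins, small metal-binding proteins that zinc and glucocorticoids induce, rose from widely spread control levels. Mt2 stood at 7.07 to 11.28 (median 8.40) in control and 12.45 to 13.90 (median 13.55) under hypoxia, a rise of 4.40 ± 0.45 (adjusted p = 1.85e-06). Mt1 stood at 9.40 to 12.64 (median 10.19) and 13.66 to 14.66 (median 14.30), a rise of 3.45 ± 0.37 (adjusted p = 3.59e-06). Among the controls 3 arrays of replicates 1 to 4 lay above every control of replicates 5 to 8 for Mt2. The rise in Mt2 was 3.18 within replicates 1 to 4 and 5.62 within replicates 5 to 8, and that in Mt1 2.45 and 4.45. Slc39a14, which imports zinc and iron, rose by 1.18 ± 0.16 (adjusted p = 4.78e-05), with 7 of 8 hypoxic arrays above the controls.

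Signalling members of the list were among the steadiest genes. Dusp1, a phosphatase that switches off MAP kinases, stood at 8.08 to 9.16 (median 8.66) in control and 11.53 to 11.94 (median 11.64) under hypoxia, a rise of 3.01 ± 0.14 (adjusted p = 1.13e-10). Sgk1, a kinase of ion transport, stood at 7.47 to 8.26 (median 7.91) and 9.86 to 10.60 (median 10.04), a rise of 2.23 ± 0.10 (adjusted p = 1.14e-10). All 8 hypoxic arrays of both genes lay within 1 log2 unit of each other. Cebpd and Cebpb, transcription factors of the liver stress response, rose by 2.26 ± 0.15 (adjusted p = 9.55e-09) and 1.24 ± 0.11 (adjusted p = 2.63e-07). Pim3, a kinase, rose by 2.01 ± 0.14, Per1, a clock gene with glucocorticoid response elements, by 1.29 ± 0.18, Fkbp5, a receptor co-chaperone, by 1.29 ± 0.16, and Zfp36, an RNA-binding protein that shortens the life of cytokine messages, by 1.21 ± 0.17 (adjusted p up to 6.61e-05). Tsc22d3, another widely used glucocorticoid marker, was not called at 0.14 ± 0.17 (adjusted p = 0.629), and Klf15 was among the smallest rises at 0.40 (adjusted p = 0.0146). Other probe sets of Pim3 gave 0.28 and 2.15.

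Growth arrest genes rose strongly although the rest of their list did not. Of 29 tested genes of growth arrest and p53 6 rose (20.7%, against 6.38% of all genes) and 4 fell (13.8%, against 14.6%). The median was 0.00, and the count was 6 and 3 without hypoxic arrays 3, 6, 7 and 8. Gadd45g, a stress sensor that binds cell cycle proteins, stood at 6.15 to 8.04 (median 7.34) in control and 10.32 to 11.24 (median 10.68) under hypoxia, a rise of 3.52 ± 0.23 (adjusted p = 1.08e-08). Cdkn1a, the kinase inhibitor p21, stood at 5.88 to 8.68 (median 7.78) and 9.94 to 10.99 (median 10.62), a rise of 2.92 ± 0.32 (adjusted p = 3.47e-06). Btg2, an antiproliferative factor that promotes RNA deadenylation, stood at 7.18 to 8.17 (median 7.64) and 9.49 to 11.69 (median 10.64), a rise of 2.90 ± 0.25 (adjusted p = 2.34e-07). No hypoxic array overlapped a control for these 3 genes, and the same held for Trp53inp1, an autophagy and stress protein (2.42 ± 0.10, adjusted p = 4.93e-11), Plk3, a stress kinase (2.02 ± 0.22, adjusted p = 3.27e-06), and Gadd45b (1.82 ± 0.15, adjusted p = 1.19e-07). Other probe sets of Gadd45b gave 0.08 and 1.79. Among the members that fell were the cell death gene Bbc3 (-0.50 ± 0.09, adjusted p = 0.000879) and the kinase inhibitor p27 gene Cdkn1b (-0.38 ± 0.07, adjusted p = 0.00131).

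Immediate early genes, which answer signals without new protein synthesis, split. Of 22 tested 9 rose (40.9%, against 6.38% of all genes) and 1 fell (4.55%, against 14.6%), with a median of 0.10. The count was the same without hypoxic arrays 3, 6, 7 and 8. Jun, a subunit of the factor AP-1, rose by 3.07 ± 0.24 (adjusted p = 9.15e-08) and its partner Fos by 2.03 ± 0.17 (adjusted p = 1.96e-07). Maff and Ier3 rose by 1.86 ± 0.14 and 2.15 ± 0.22, and Atf3 by 0.75 ± 0.12 (adjusted p up to 0.000301). Control values of Fos (4.15 to 4.80) and Ier3 (4.19 to 5.22) reached down to the 30th percentile of the control arrays (4.18 to 4.30). The sizes of these 2 rises are therefore uncertain. Egr1, usually raised with Fos, went from a control median of 8.98 to 7.88 and was not called at -0.94 ± 0.40 (adjusted p = 0.11). It was called lower with the replicate block (adjusted p = 0.0275) and without control 4 (adjusted p = 0.00155). Of 14 Krüppel-like factors 7 rose (50%, against 6.38% of all genes) and 1 fell (7.14%, against 14.6%). They were led by Klf3 (1.31 ± 0.11, adjusted p = 1.38e-07) and Klf2, a flow-responsive gene of endothelium (0.99 ± 0.13, adjusted p = 3.19e-05). Other probe sets of Klf3 gave 0.12 to 0.97.

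Snhg3, an RNA whose introns hold small nucleolar RNAs, had the smallest adjusted p of all genes. It stood at 5.49 to 6.29 (median 5.71) in control and 8.79 to 9.63 (median 9.47) under hypoxia, and the rise was 3.66 ± 0.10 (adjusted p = 9.64e-14). Hypoxic array 6 was the lowest of its group and still more than 2 log2 units above the highest control. Gas5, another host of small nucleolar RNAs, fell by 0.42 (adjusted p = 0.000701). Noct, a circadian gene of NADP metabolism, rose by 3.24 ± 0.28 (adjusted p = 2.34e-07), and Rrm2, a subunit of ribonucleotide reductase, by 2.19 ± 0.19 (adjusted p = 2.02e-07), both without overlap of the groups.

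**Figure D3:**
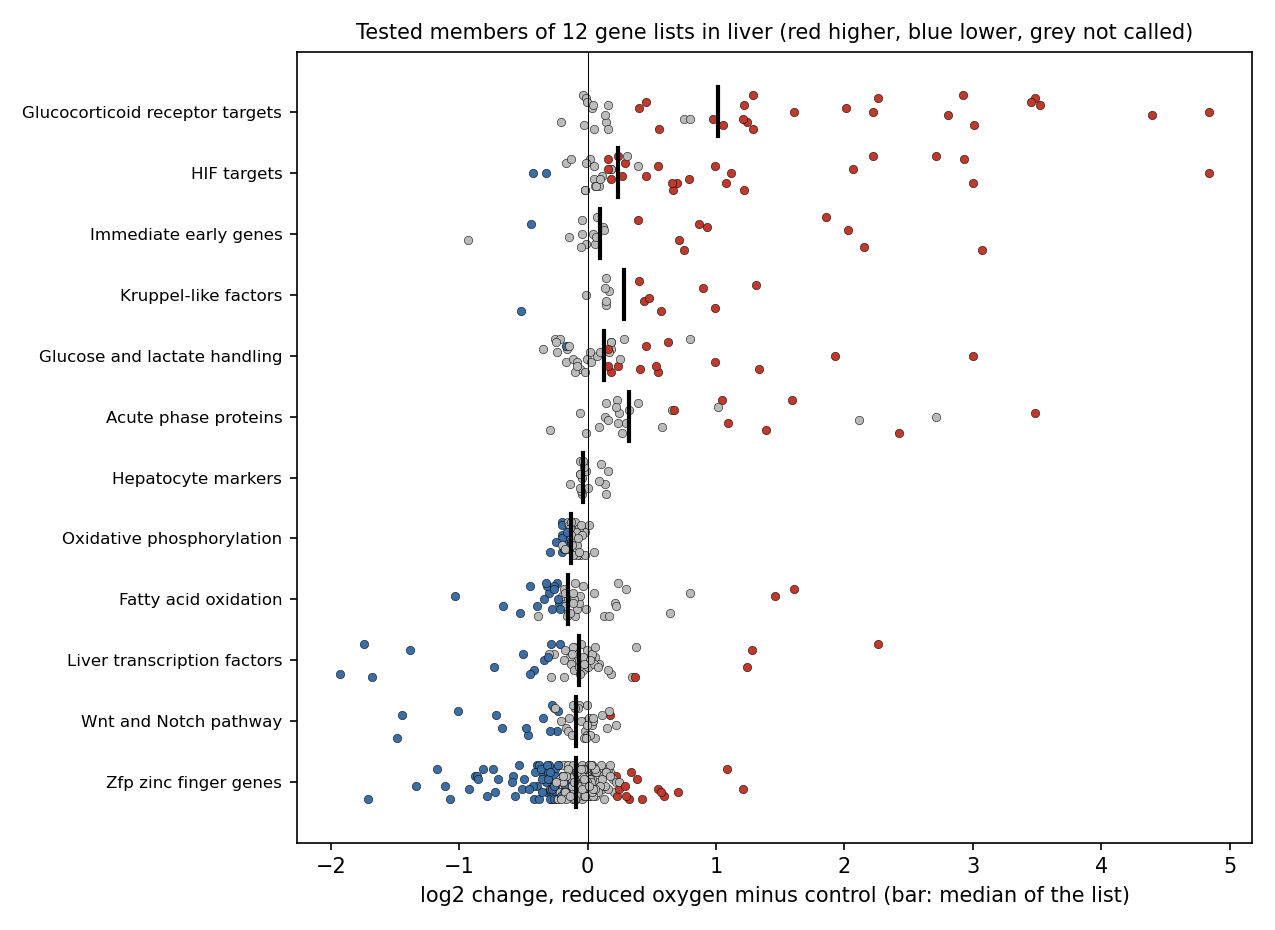
Each point is the log2 change (x axis, reduced oxygen minus control) of 1 tested gene in 1 of 12 lists (y axis); red points were called higher, blue lower, grey neither, and the black bar is the median of the list. Glucocorticoid receptor targets have the highest median (1.01), hepatocyte markers lie around 0, and oxidative phosphorylation, fatty acid oxidation, transcription factor, Wnt and zinc finger lists have more blue than red points.

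Of 40 tested genes of glycolysis, glucose and lactate 13 rose (32.5%, against 6.38% of all genes) and 1 fell, with a median of 0.13, and 6 rose and 0 fell without hypoxic arrays 3, 6, 7 and 8. Without hypoxic array 1, 4 fell. Ppp1r3c, which targets a phosphatase to glycogen and favours its synthesis, stood at 9.70 to 10.80 (median 10.51) in control and 11.77 to 12.57 (median 12.41) under hypoxia, a rise of 1.93 ± 0.15 (adjusted p = 7.26e-08). Its relatives Ppp1r3g and Ppp1r3b rose by 1.33 ± 0.28 (adjusted p = 0.00242) and 0.63 ± 0.13 (adjusted p = 0.00251). Every hypoxic array lay above the controls for Ppp1r3c and Ppp1r3b, and 6 of 8 for Ppp1r3g.

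On the side of glucose output and nitrogen disposal 9 of 44 genes rose (20.5%, against 6.38% of all genes) and 6 fell (13.6%, against 14.6%). Their median was -0.02, and 7 rose and 0 fell without hypoxic arrays 3, 6, 7 and 8. G6pc, the last step of glucose release, stood at 11.34 to 11.81 (median 11.57) in control and 11.96 to 13.17 (median 12.79) under hypoxia, a rise of 1.21 ± 0.13 (adjusted p = 3.18e-06). Ass1, the urea cycle enzyme that makes argininosuccinate, stood at 6.70 to 8.61 (median 7.71) and 9.18 to 9.58 (median 9.46), a rise of 1.80 ± 0.20 (adjusted p = 4.54e-06). Tat, which starts tyrosine breakdown, rose by 1.05 ± 0.11 (adjusted p = 1.52e-06), and Got1, an aspartate aminotransferase, by 0.98 ± 0.16 (adjusted p = 0.000289). The groups of these 4 genes did not overlap. Slc38a2, an amino acid importer, rose by 1.84 ± 0.12 (adjusted p = 8.4e-09). Among 25 genes of insulin action 5 rose (20%, against 6.38% of all genes) and 6 fell (24%, against 14.6%). Without hypoxic arrays 3, 6, 7 and 8, 2 rose (8%, against 2.97%) and 4 fell (16%, against 5.47%). Irs1, the insulin receptor substrate, fell by 1.08 ± 0.14 (adjusted p = 2.22e-05). Foxo1, a factor that insulin restrains, rose by 0.83 ± 0.10 (adjusted p = 2.14e-05), and its other probe sets gave 0.12 to 0.89.

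Genes of fat burning and respiration fell by small amounts, and few were called lower without hypoxic arrays 3, 6, 7 and 8. Because the samples are bulk tissue, fewer cells of a type and less RNA per cell cannot be told apart. Of 46 PPAR-alpha targets and genes of fatty acid oxidation 2 rose and 16 fell (34.8%, against 14.6% of all genes), with a median of -0.16, but 5 rose and 1 fell without those 4 arrays, with a median of -0.03. Of 42 subunits of oxidative phosphorylation 0 rose and 14 fell (33.3%, against 14.6% of all genes), with a median of -0.13, and 0 were called without those 4 arrays. Without the set term 8 of the fat-burning genes and 1 of the respiration genes fell. Within replicates 1 to 4 alone 1 and 0 fell (457 of all genes), and within replicates 5 to 8 alone 11 and 16 (1331 of all genes). Of the 42 respiration subunits 9, 7, 14 and 4 lay below all controls on hypoxic arrays 1 to 4. On hypoxic arrays 5 to 8 the counts were 18, 28, 26 and 26. Of all 12735 genes 1822 to 3164 lay below all controls on hypoxic arrays 1 to 4 and 3238 to 3751 on 5 to 8. Ppara itself, the fatty acid sensor, fell by 0.45 ± 0.10 (adjusted p = 0.00299), a call that ended without hypoxic arrays 3, 6, 7 and 8 (adjusted p = 0.0914).

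Single genes of the fat list moved much more. Plin5, which couples lipid droplets to mitochondria, stood at 8.89 to 10.03 (median 9.72) in control and 10.49 to 11.79 (median 11.09) under hypoxia, a rise of 1.46 ± 0.15 (adjusted p = 2.16e-06). Lpin1, a phosphatase and coactivator of fat burning, stood at 9.54 to 11.67 (median 11.22) and 12.02 to 13.25 (median 12.46), a rise of 1.61 ± 0.26 (adjusted p = 0.000302). The groups of both genes were separate. G0s2, an inhibitor of fat breakdown, fell by 1.03 ± 0.34 (adjusted p = 0.0389) with overlapping groups, but not with the replicate block (adjusted p = 0.0575), with a robust prior (adjusted p = 0.0772), nor without any 1 of controls 1, 5, 6 and 7 and hypoxic arrays 1, 2, 3, 5 and 6 (adjusted p up to 0.0809).

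The forkhead factor Foxa1 and the homeobox factor Hhex were among the 15 largest falls. Of 49 liver transcription factors and nuclear receptors 4 rose (8.16%, against 6.38% of all genes) and 12 fell (24.5%, against 14.6%), with a median of -0.07, and 3 rose and 6 fell without hypoxic arrays 3, 6, 7 and 8. Foxa1, a pioneer factor that opens chromatin at liver genes, stood at 7.88 to 8.91 (median 8.23) in control and 6.01 to 6.64 (median 6.36) under hypoxia, a fall of 1.93 on the log2 scale (SE 0.13, adjusted p = 1.08e-08). Its close relative Foxa2 stood at 8.51 to 9.75 (median 8.98) and 7.25 to 8.08 (median 7.68), with a change of -1.38 ± 0.13 (adjusted p = 6.8e-07). Every hypoxic array lay below every control for both genes, and without hypoxic arrays 3, 6, 7 and 8 the changes were -1.94 and -1.18. Hhex, needed for liver and endothelial development, stood at 8.91 to 10.71 (median 9.77) and 7.41 to 9.11 (median 7.87), a change of -1.74 ± 0.27 (adjusted p = 0.000158). Hypoxic array 5 was the only 1 of 8 within the control range, and hypoxic arrays 1 and 2 were the next highest. Hhex changed by -1.23 (adjusted p = 0.0186) without hypoxic arrays 3, 6, 7 and 8. Foxq1 fell by 1.68 (SE 0.27, adjusted p = 0.000238), the orphan receptor Nr2f2 by 0.73 (SE 0.12, adjusted p = 0.000291) and Cebpa, a driver of hepatocyte metabolism, by 0.51 (SE 0.06, adjusted p = 2.16e-05). The hepatocyte products Alb and Apoa1, albumin and the main protein of HDL, stood at -0.01 ± 0.04 and -0.06 ± 0.04 and were not called. Both lay near the top of the intensity scale, where a change may not show.

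Wnt signalling sets the pericentral zone of the liver. Of 42 genes of Wnt and Notch signalling 1 rose and 12 fell (28.6%, against 14.6% of all genes), with a median of -0.09 (-0.16 within replicates 1 to 4 and 0.00 within 5 to 8), and 0 rose and 5 fell without hypoxic arrays 3, 6, 7 and 8. The Wnt receptor Fzd7 stood at 6.91 to 8.02 (median 7.40) in control and 4.93 to 6.53 (median 6.15) under hypoxia, a change of -1.49 ± 0.21 (adjusted p = 7.44e-05), and -0.97 within replicates 5 to 8 alone. Its dimmer probe set gave -0.13 (adjusted p = 0.183). The receptor Fzd5 fell by 1.01 (SE 0.15, adjusted p = 8.41e-05). The feedback inhibitors Rnf43, which removes Wnt receptors, and Axin2, a standard readout of the pathway, changed by -1.44 ± 0.17 (adjusted p = 1.02e-05) and -0.67 ± 0.07 (adjusted p = 2.83e-06). For these 4 genes all hypoxic arrays were below all controls. Of 21 pericentral hepatocyte genes 1 rose and 2 fell (9.52%, against 14.6%), and without hypoxic array 1 or 5 the falls were 5 and 4.

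The largest fall belonged to Arrdc3, an arrestin-domain protein that takes receptors off the cell surface. It stood at 10.01 to 11.23 (median 10.85) in control and 7.12 to 8.91 (median 7.74) under hypoxia, a change of -2.88 ± 0.23 (adjusted p = 9.15e-08). The groups were more than 1 log2 unit apart. Its relative Arrdc2 rose by 1.22 ± 0.16 (adjusted p = 3.84e-05), and the related Txnip, which restrains glucose uptake, by 0.68 ± 0.19 (adjusted p = 0.0145). Phlda1, an early gene of growth factor signals, changed by -2.22 ± 0.25 (adjusted p = 6.21e-06), Osgin1, an NRF2 target that restrains growth, by -2.11 ± 0.19 (adjusted p = 4e-07) and Id3, an inhibitor of helix-loop-helix factors, by -1.63 ± 0.13 (adjusted p = 9.93e-08). Nfe2l2, the gene of NRF2, changed by -1.20 ± 0.09 (adjusted p = 6.32e-08) on its brightest probe set and by 0.61 ± 0.13 on a dimmer one (adjusted p = 0.00439), so its direction depends on the probe set.

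Zinc finger genes of the Zfp series, mostly DNA-binding repressors, fell in number. Of 211 tested 15 rose and 64 fell (30.3%, against 14.6%), with a median of -0.09. Of 53 genes named Zscan, Zkscan or Zbtb, mostly relatives of the same kind, 3 rose and 21 fell (39.6%, against 14.6%). Without hypoxic arrays 3, 6, 7 and 8 the falls were 32 and 10 (15.2% and 18.9%, against 5.47% of all genes). Without the set term 33 of the Zfp genes fell, where 919 of all genes did. Zfp866 stood at 6.26 to 7.06 (median 6.55) in control and 4.32 to 5.21 (median 4.89) under hypoxia, a change of -1.71 ± 0.12 (adjusted p = 2.13e-08), and Zfp760 changed by -1.34 ± 0.10 (adjusted p = 5.99e-08). Neither gene's groups overlapped. Zfp36, counted among the 15 rises by its symbol, is an RNA-binding protein of another kind.

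The acute phase genes, which hepatocytes switch on under inflammatory cytokines, differed between hypoxic arrays more than between groups. Of 27 tested 7 rose (25.9%, against 6.38% of all genes) and 0 fell, with a median of 0.32. However, 0 rose without hypoxic arrays 3, 6, 7 and 8, where the median was 0.01. Within replicates 1 to 4 alone 0 were called, within replicates 5 to 8 alone 18 rose, and without hypoxic array 1, 2 or 5 the count was 20, 14 and 14. On hypoxic arrays 1, 2 and 5 0, 1 and 4 of the 27 lay above all controls, against 24, 19, 24, 23 and 22 on hypoxic arrays 3, 4, 6, 7 and 8. The glucocorticoid targets above all controls did not follow that division, at 24, 22 and 18 on hypoxic arrays 1, 2 and 5 and 21 to 24 on the others.

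Lcn2, which binds bacterial siderophores, stood at 6.03 to 9.91 (median 7.10) in control and 7.07 to 13.81 (median 12.41) under hypoxia. On hypoxic arrays 1, 2 and 5 it read 7.15, 7.08 and 7.07, inside the range of all 8 controls. Against their own replicate set, hypoxic arrays 1 and 2 lay below controls 1 to 4 (7.31 to 9.91). Hypoxic array 5 lay above controls 5 to 8 (6.03 to 6.90). On hypoxic arrays 3, 4, 6, 7 and 8 Lcn2 read 13.81, 11.83, 13.81, 13.00 and 13.33. The change over all arrays was 3.48 ± 1.09 (adjusted p = 0.03), and 0.39 without hypoxic arrays 3, 6, 7 and 8 (adjusted p = 0.82). Leaving out any 1 of controls 5 to 8 or of hypoxic arrays 3, 4, 6, 7 and 8 ended the call (adjusted p up to 0.0648), as did a robust prior (adjusted p = 0.0682). Saa3, a serum amyloid A of inflamed tissue, read 7.68, 8.55 and 8.01 on hypoxic arrays 1, 2 and 5 and 10.11 to 13.22 on the others, against 7.21 to 9.29 in control. Its change was 2.42 ± 0.74 (adjusted p = 0.0258), and the call ended without control 8 or hypoxic array 3, 6, 7 or 8 (adjusted p up to 0.056) and with a robust prior (adjusted p = 0.0602).

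The same hypoxic arrays were high for other acute phase genes. Orm2, an acid glycoprotein, read 7.22 to 8.09 on hypoxic arrays 1, 2 and 5 and 11.02 to 14.02 on the others, and was not called at 2.71 ± 1.04 (adjusted p = 0.0723). Controls 1 to 4 (8.35 to 10.19) lay above controls 5 to 8 (6.65 to 7.01). Hypoxic arrays 1 and 2 (7.49 and 7.22) lay below controls 1 to 4, and hypoxic array 5 (8.09) lay above controls 5 to 8. Without any 1 of hypoxic arrays 1, 2 and 5 Orm2 was called (adjusted p down to 0.023). Serpina3n, a protease inhibitor (1.09 ± 0.27, adjusted p = 0.00823), Lbp, which presents bacterial lipopolysaccharide (1.04 ± 0.31, adjusted p = 0.023), and Steap4, an iron reductase (1.59 ± 0.44, adjusted p = 0.0163), also rose, and hypoxic arrays 1, 2 and 5 were again the lowest of their group. Without hypoxic arrays 3, 6, 7 and 8 their changes were 0.38, 0.17 and 0.38, and none was called by limma. With a robust prior Lbp was not called either (adjusted p = 0.0508).

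Some markers of neutrophils and macrophages moved with these arrays, and their part in the result was not tested. The summed level of 11 neutrophil markers was 9.35 to 10.55 in control, 9.37 to 9.65 on hypoxic arrays 1, 2 and 5, and 12.06 to 14.01 on hypoxic arrays 3, 4, 6, 7 and 8. Of the 11, 4 rose (36.4%, against 6.38% of all genes) and 1 fell (9.09%, against 14.6%). Without any 1 of hypoxic arrays 6, 7 and 8, 2 rose. Without hypoxic arrays 3, 6, 7 and 8, 0 were called (against 2.97% of all genes higher and 5.47% lower). Lcn2 is 1 of the 11 and made up most of that sum, with 13.81 where the sum was 13.97 on hypoxic array 3. Above all controls lay 0, 1 and 3 of the 11 on hypoxic arrays 1, 2 and 5, and 4, 4, 8, 7 and 10 on hypoxic arrays 3, 4, 6, 7 and 8. Of all 12735 genes 1417 to 2755 lay above all controls on 1 hypoxic array. The median marker did not follow the division on every array. The median difference of the 11 from the control mean was -0.09, -0.11 and 0.26 on hypoxic arrays 1, 2 and 5, and 0.10, -0.23, 0.61, 0.32 and 0.35 on hypoxic arrays 3, 4, 6, 7 and 8. S100a8, a calcium-binding protein of neutrophils, did follow it, at 4.59 to 4.81 on hypoxic arrays 1, 2 and 5 and 5.69 to 8.49 on the others. It rose by 1.81 ± 0.48 (adjusted p = 0.0119) and was at 0.52 without hypoxic arrays 3, 6, 7 and 8 (adjusted p = 0.0983). Its control values (4.09 to 4.82) reached down to the 30th percentile of the control arrays (4.18 to 4.30), so the size is uncertain. The granule genes Elane (0.07, adjusted p = 0.528) and Ngp (0.06, adjusted p = 0.644) were not called. Their control means, 5.53 and 4.90, lay near or below the array medians, so a missing call says little. The defining genes Mpo, Ly6g and Camp were too dim to be tested. Of 20 Kupffer cell and macrophage markers 1 rose (5%, against 6.38% of all genes) and 0 fell, and 4 rose without hypoxic array 1 or 5. Within replicates 1 to 4 alone 0 were called, with a median of -0.16. Within replicates 5 to 8 alone 14 rose, with a median of 0.61, where 588 of all 12735 genes rose. The 1 called over all arrays was Cd14, the lipopolysaccharide co-receptor, which hepatocytes can also make: it changed by 1.42 ± 0.41 (adjusted p = 0.0201) and by 0.37 without hypoxic arrays 3, 6, 7 and 8. Their summed level was 12.77 to 13.59 in control, 13.76 to 14.05 on hypoxic arrays 3, 6, 7 and 8, and 12.70 to 13.20 on the rest. Of the defining Kupffer genes Clec4f was at -0.33 within replicates 1 to 4, was called at 0.48 within 5 to 8 (adjusted p = 0.0426), and over all arrays was not called at 0.08 ± 0.16 (adjusted p = 0.78). Of 6 erythroid markers 0 rose and 4 fell (66.7%, against 14.6% of all genes). Without hypoxic arrays 3, 6, 7 and 8, 0 of the erythroid markers were called (against 5.47% of all genes lower). Their summed level was 10.97 to 11.37 in control and 10.76 to 11.16 under hypoxia. Of 5 B cell and 7 T and NK cell markers 0 were called by limma.

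**Figure D4:**
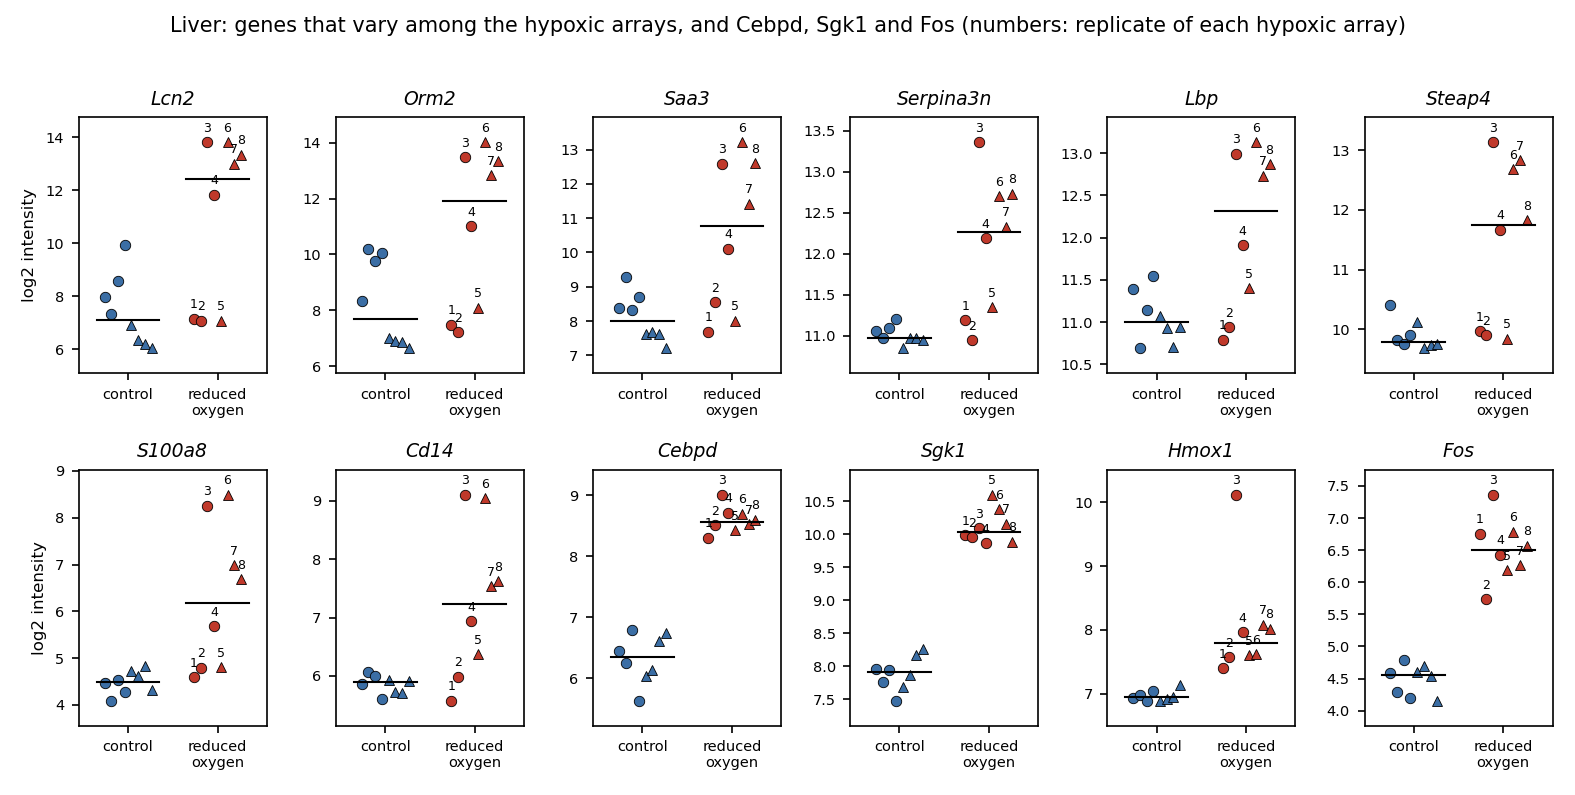
Each panel gives the log2 intensity (y axis) of 1 gene on the 8 control and 8 reduced-oxygen liver arrays; digits are the replicate numbers of hypoxic arrays, circles replicates 1 to 4, triangles 5 to 8, and bars group medians. For Lcn2, Orm2 and Saa3 hypoxic arrays 1, 2 and 5 lie within or near the control range and 3, 4, 6, 7 and 8 above it, for Cebpd, Sgk1 and Fos all 8 lie above the controls, and for Hmox1 array 3 stands alone.

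The replicate sets were compared because they differ in the level of dim probe sets, whose 30th percentile was 4.16 to 4.23 in replicates 1 to 4 and 4.28 to 4.31 in replicates 5 to 8. The labels name no batch. Within replicates 1 to 4, 302 genes rose and 457 fell (5.96% called), and within replicates 5 to 8, 588 rose and 1331 fell (15.1%). Both sets shared 487 calls, 64.2% of the first and 25.4% of the second, and 0 genes were called in opposite directions. Of the calls of replicates 1 to 4, 96.7% had the same sign within 5 to 8, against 66.0% of all genes. A test of the difference between the sets called 0 genes by limma (0% of those tested), while 1272 had an unadjusted p under 0.05. The smallest p belonged to Taok3, a stress kinase gene, at -0.72 within replicates 1 to 4 and 0.25 within 5 to 8 (adjusted p = 0.125). Its difference between the sets was called without control 6 or hypoxic array 7 (adjusted p down to 0.0153).

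**Figure D5:**
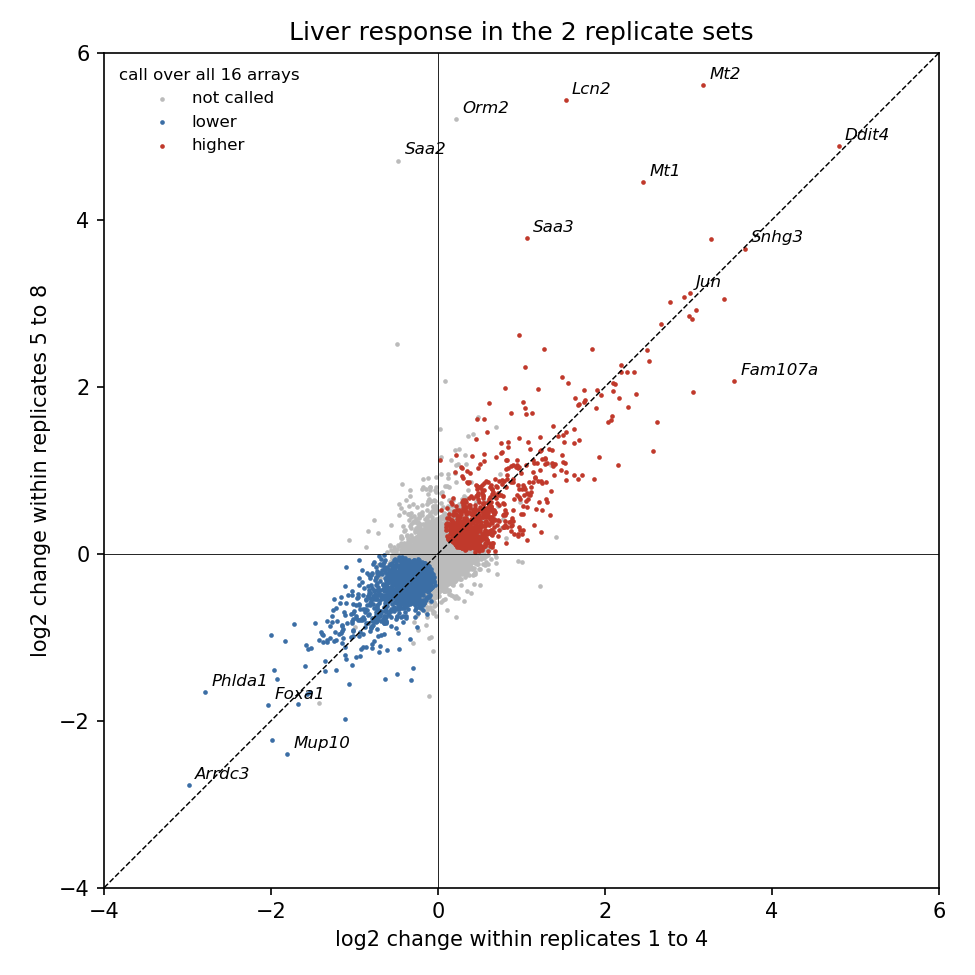
Each point is 1 gene, with its log2 change within replicates 1 to 4 on the x axis and within replicates 5 to 8 on the y axis; colours give the call over all 16 arrays and the dashed line is equality. Ddit4, Snhg3, Jun, Foxa1 and Arrdc3 lie near the line, and Lcn2, Orm2, Saa2, Saa3, Mt1 and Mt2 lie above it, with larger changes in replicates 5 to 8.

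Spleen, measured in the same series on 8 hypoxic and 8 control arrays, served to show where the liver response differed. In a joint limma fit of 11325 genes the change in liver differed from that in spleen for 1545 (13.6%), with the liver change above for 703 and below for 842. Of the 15 largest rises and 15 largest falls of liver 23 could be tested in both tissues, and 18 of them differed. These genes were picked by their liver change, which by itself favours a difference. The direction in spleen was the same for 20 of the 23, and 9 rises and 7 falls were also called there. Arrdc3 went in opposite directions: it rose by 1.64 in spleen, a difference of -4.52 ± 0.27 (adjusted p = 7.01e-13). Snhg3 changed by 0.60 in spleen against 3.66 in liver (difference 3.06 ± 0.20), Trp53inp1 by 0.26 against 2.42 (2.16 ± 0.15) and Slc38a2 by -0.21 against 1.84 (2.05 ± 0.14), with adjusted p up to 7.27e-12. Tcim, a regulator of Wnt signalling and growth, rose by 2.47 ± 0.15 in liver and was at -0.65 in spleen (difference 3.12 ± 0.19).

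Among the oxygen and hormone targets the tissues differed gene by gene. Ddit4 rose in both, by 2.11 in spleen (difference 2.73 ± 0.27), while Pfkfb3 was at 0.04 in spleen (difference 2.96) and Tfrc at 0.36 (difference 1.86 ± 0.35, adjusted p = 0.000521). The difference was not called for Bnip3 (0.75 in spleen, difference -0.05 ± 0.16, adjusted p = 0.87), Adm (1.14, difference 0.08 ± 0.17) and Fos (2.16, difference -0.13 ± 0.28). Egln3 and Tsc22d3, which were not called in liver, changed by 1.06 and 1.41 in spleen. Their differences were -0.94 ± 0.29 (adjusted p = 0.0248) and -1.27 ± 0.26 (adjusted p = 0.000947). For Egln3 this rests on its brightest probe set, and its dimmer one gave 0.58 in liver. Levels are not compared between the tissues.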

How the data were processed

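The deposited values give, for each probe set and array, a linear intensity between 5.776 and 43830, made with RMA per the submitters' processing notes, which also name limma, with no version. The deposited intensities were turned into log2 values with no offset added. Of 45101 probe sets, 34958 carried 1 gene symbol, 932 several and 9211 none, and 18194 genes remained when each was represented by its brightest probe set across the liver arrays. Genes below the 30th percentile of mean level were left out, which left 12735. The main test was limma 3.58.1 in R 4.3.3 with group and replicate set as terms, two-sided, with Benjamini-Hochberg adjustment over all genes tested, checked on simulated data. The comparison with spleen used 1 fit of both tissues with an interaction term. Probe intensities carry no read depth, and the number of arrays limits the precision.

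Titles number the replicates alike in both groups. Same-numbered liver arrays deviated together from their group means (correlations 0.166 to 0.535), and around the means of group and set the correlations were -0.0372 to 0.299. The replicate number as a block was an alternative, beside other probe set choices, dim-gene filters, scalings and priors, and each array left out in turn.

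The comparison and all gene lists were chosen with earlier results of these data known. The rule for naming genes took the 15 largest rises and falls, 4 genes of smallest p per list, a few textbook hypoxia genes, promoter genes, defining markers and 5 genes per interaction. List members outside it were named after their values were seen.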

Additional observations from a re-analysis of the deposited data

Results flagged for a closer look

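In 15 of 238 groups of 8 liver arrays examined among the named genes, 1 array stood far from the rest of its group, its gap to the nearest array passing Dixon's critical value for that number of arrays. Chance marks about 1 in 20 such groups. Hypoxic array 3 was the array for 6 genes: it was the highest of its group for Hmox1 (10.12), Foxq1 (7.375), Id3 (7.839), Rhob (10.05) and Thbd (7.441) and the lowest for G6pc (11.96). On other hypoxic arrays the values apart were Klf2 on array 1 (6.5), Tat on array 2 (13.61), Dbp (8.941) and Ppara (10.97) on array 4, Rrm2 on array 5 (7.072), Snhg3 on array 6 (8.79) and Taok3 on array 7 (8.401). Among the controls they were Rrm2 on array 4 (6.849) and Gadd45b on array 5 (7.139).

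The response of 5 genes differed most clearly between liver and spleen by limma's interaction term, as the liver change minus the spleen change. It was -4.52 for Arrdc3, 3.123 for Tcim, 3.061 for Snhg3, 2.163 for Trp53inp1 and 2.05 for Slc38a2.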

How the results depend on the processing

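Of the choices tried, the set term and the arrays used moved the counts most. Against 2668 calls (812 higher, 1856 lower), 1413 (494 and 919) were called without the set term, 759 (302 and 457) within replicates 1 to 4, and 1075 (378 and 697) without hypoxic arrays 3, 6, 7 and 8, an alternative chosen after seeing the data. Fewer arrays enter the last 2. With the replicate block 2385 were called (748 and 1637), and apart from Hif1a, Epas1, G0s2, Egr1 and Dbp it changed no call among the genes named above. Leaving out 1 array gave 2164 to 2991 calls (669 to 994 higher, 1495 to 1997 lower). Other probe set choices, filters, scalings and priors gave 2454 to 2740. The difference between sets called 0 genes by limma, 1 after quantile normalization, and 0 to 2 with 1 array left out: 1 without control 1, control 6 or hypoxic array 7, and 2 without hypoxic array 3. Liver and spleen differed for 1545 genes (703 above, 842 below), 843 without the set term (413 and 430), 1140 with the replicate block (527 and 613), and 1309 to 1766 with 1 array left out (574 to 840 and 721 to 926). The causes were not tested. Of 1280 called genes with another probe set above the filter, 991 (77.7%) had all such probe sets in the direction of the call.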

Other observations

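Endothelial and clock genes moved in both directions. Of 42 genes of endothelial growth and junctions 6 rose (14.3%, against 6.38% of all genes) and 5 fell (11.9%, against 14.6%). Without hypoxic arrays 3, 6, 7 and 8 the counts were 5 and 2. Gja4, a gap junction protein of arteries, rose by 1.42 ± 0.10 (limma, adjusted p = 4.15e-08), and Thbd, the anticoagulant thrombomodulin, by 1.25 ± 0.16 (adjusted p = 2.33e-05), both on all 8 hypoxic arrays above every control. Rhob, a small GTPase, rose by 1.06 ± 0.08 (adjusted p = 3.47e-08), and Sox18, a transcription factor of vessel growth, changed by -1.30 ± 0.14 (adjusted p = 4.89e-06) with no overlap. Of 21 core clock genes 6 rose (28.6%, against 6.38%) and 2 fell (9.52%, against 14.6%). The counts were 4 and 0 without hypoxic arrays 3, 6, 7 and 8, and 7 and 4 with the replicate block. Without hypoxic array 4, 5 fell. Nr1d1, a repressor in the clock, changed by -0.84 ± 0.25 (adjusted p = 0.0225), a call that ended without hypoxic arrays 3, 6, 7 and 8 (adjusted p = 0.466), and Dbp, its output factor, was not called at -1.61 ± 0.69 (adjusted p = 0.108), with controls from 5.21 to 11.32, but was called with the replicate block (adjusted p = 0.0171) and without hypoxic array 4.

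Of 53 cytochrome P450 genes, which handle drugs, steroids and bile acids, 2 rose and 15 fell (28.3%, against 14.6% of all genes), with 1 and 4 without hypoxic arrays 3, 6, 7 and 8. Cyp7a1, the rate-limiting enzyme of bile acid synthesis, was not called (adjusted p = 0.997). Irf1, an interferon response factor, changed by -1.23 ± 0.09 (adjusted p = 4.43e-08), and Ern1, a sensor of unfolded protein, by -0.93 ± 0.10 (adjusted p = 2.18e-06), each with every hypoxic array below every control. For Ern1 this holds for its brightest probe set, and 2 others above the filter gave -0.38 and -0.06. Mup10, a secreted pheromone carrier, changed by -2.10 ± 0.15 (adjusted p = 3.47e-08), but its near-identical relatives make the probe set's identity uncertain. Of 43 ribosomal protein genes 0 rose and 1 fell, and of 37 proteasome subunits 0 rose and 2 fell.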
